A study of Homo sapiens with 6 samples.

Results

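The 7 mRNAs described here are those by which the mitochondrial genome encodes subunits of respiratory complex I: MT-ND1, MT-ND2, MT-ND3, MT-ND4, MT-ND4L, MT-ND5 and MT-ND6. They were taken by name from a table of 20024 genes, and all 7 were found there. The other 6 mitochondrially encoded mRNAs, of complexes III to V, served for comparison. The libraries hold RNA that came down with PTBP1 (polypyrimidine tract-binding protein 1, which binds RNA) by RNA immunoprecipitation and sequencing (RIP-seq), in which an antibody pulls down a protein with its RNA. Of the 6 libraries, 3 came from AC16 cells with a knockout of DCRT, a long noncoding RNA (DCRT-KO), and 3 from AC16 cells that were wild type (WT), all with the PTBP1 antibody. The labels call AC16 a heart-derived cardiomyocyte line, and they do not say how DCRT was removed or whether the knockout is 1 clone. The series title ties the comparison to dilated cardiomyopathy and to the binding of DCRT to PTBP1. Neither input RNA nor a control precipitation was analysed here, so transcript abundance, PTBP1 binding and RNA carried along unbound cannot be told apart.

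Complex I, NADH:ubiquinone oxidoreductase, takes electrons from NADH into the respiratory chain and pumps protons across the inner mitochondrial membrane. Its membrane arm is built around the mitochondrially encoded subunits, while the other subunits are made from nuclear genes and imported. Mitochondrial DNA is transcribed as long precursors from both strands, from which tRNAs are cut out to release the mRNAs. MT-ND6 is the only one of the complex I mRNAs made from the light-strand promoter, and MT-ND4L and MT-ND4 stay together on 1 mRNA. Heart muscle depends on the respiratory chain for most of its ATP, and inherited defects of complex I can cause cardiomyopathy. PTBP1 binds CU-rich stretches of RNA and is known for controlling nuclear pre-mRNA splicing and cytoplasmic mRNA stability and translation.

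The positions in the file equal those of GENCODE 29 (GRCh38) for all 13 mitochondrial mRNAs, so sequences were read from GENCODE transcripts. MT-ND4L, at chrM:10470-10766, and MT-ND4, at chrM:10760-12137, are consecutive on the plus strand and share 7 bases. The end of the first and the start of the second are shown because fragments across the junction can belong to either gene. Capitals mark the shared bases, 5′ to 3′, chrM:10737-10766 and chrM:10760-10789.
MT-ND4L end: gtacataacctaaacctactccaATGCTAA
MT-ND4 start: ATGCTAAaactaatcgtcccaacaattata
The shared bases are 2.36% of the length of MT-ND4L.

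Base composition set MT-ND6 apart from the rest. On their own sense strands, the 6 mRNAs encoded on the plus strand held 59.0% to 59.9% pyrimidines (C and T), and MT-ND6, on the minus strand at chrM:14149-14673, held 44.8%. MT-ND6 had 7.05% C and 35.6% G. Among windows of the same length from the middle of nuclear protein-coding transcripts, 15.7% had a lower pyrimidine share than MT-ND6, against 95.8% for MT-ND4L and 99.6% for MT-ND4 and MT-ND5. The longest unbroken run of C and T in 4 of the mRNAs is shown in capitals, because PTBP1 binds such stretches. These runs are the 2 longest and the 2 shortest of the 7. They lie at chrM:14093-14122, chrM:5201-5230 and chrM:10615-10644 on the plus strand and at chrM:14600-14629 on the minus strand.
MT-ND5: tttaCTTCCTCTCTTTCTTCTTCCCactca
MT-ND2: tccatccaCCCTCCTCTCCCTaggaggcct
MT-ND4L: tcaacacccaCTCCCTCTTagccaatattg
MT-ND6: gtttgtggggTTTTCTTCTaagccttctcc
The run had 21 bases in MT-ND5, 13 in MT-ND2, 12 in MT-ND4, 11 in MT-ND1 and MT-ND3, and 9 in MT-ND4L and MT-ND6. In the mRNAs of complexes III to V it had 8 bases (MT-ATP8) to 20 (MT-CYB). Their pyrimidine share was 55.1% to 59.4%, so neither trait is particular to the complex I mRNAs. The motif TCTT occurred on the sense strand of every one of the 7, 13 times in MT-ND5 and 2 to 7 times in the others, and it is common: 70.5% of windows of the length of MT-ND4L and 99.4% of those of MT-ND5 held it. Matches of both motifs can overlap. CTCTCT occurred 3 times in MT-ND4, 1 time each in MT-ND2 and MT-ND5, and not in the other 4. Of windows as long as MT-ND4, 37.8% held it. On the opposite strand of these genes TCTT occurred 0 to 3 times and CTCTCT not at all. These matches describe letters only.

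Counted fragments, worked back from the FPKM values, totalled 373354 to 1380722 in DCRT-KO libraries and 1798841 to 2589080 in WT libraries, so depth goes with genotype. FPKM are counted fragments divided by gene length and by the library's fragment total. Letters a, b and c stand for the WT columns, whose headers repeat a number. The table has 0 rows named DCRT, and loss of DCRT RNA was therefore not checked. Of 12 cardiomyocyte markers, 7, among them TNNT2, TNNI3, MYH6 and MYH7, were listed at 0 in all 6 libraries. The summed level of the list was 0 to 12.3 FPKM in DCRT-KO and 1.30 to 2.68 FPKM in WT libraries. The 12.3 FPKM, in DCRT-KO library 2, came from NPPA and NPPB with 2 fragments each. Summed fibroblast and smooth muscle markers had 9.31 to 12.1 FPKM in DCRT-KO and 18.1 to 20.95 FPKM in WT, led by PDGFRA, with COL1A2, DCN and LUM at 0 throughout. Endothelial markers summed to at most 2.69 FPKM in DCRT-KO and 3.03 FPKM in WT with CDH5 at 0, and blood markers to at most 0.335 and 0 FPKM, with PTPRC and HBB at 0. The part of these cell types in the results was not tested, and in bulk samples fewer cells of a type and less RNA per cell cannot be told apart.

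MT-ND4, a subunit of the proton-pumping membrane arm, had the highest level of the 7. It had 5911, 3571 and 3047 FPKM in DCRT-KO libraries 1, 2 and 3, against 4664, 5804 and 6059 FPKM in WT libraries a, b and c. DCRT-KO library 1 lay among the WT values, and libraries 2 and 3 lay below all of them. The log2 difference was -0.45 ± 0.33 SE on the log2(FPKM + 1) scale (limma adjusted p = 0.435; lower than every WT library in 2 of 3 DCRT-KO libraries).

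MT-ND2 and MT-ND5 are related pump subunits of the same arm. MT-ND2 had 4681, 2781 and 2396 FPKM in DCRT-KO, against 3648, 3949 and 4926 FPKM in WT. MT-ND5 had 3657, 2123 and 1735 FPKM in DCRT-KO, against 2579, 3351 and 3582 FPKM in WT. In both genes DCRT-KO libraries 2 and 3 were again the lowest of the 6, and DCRT-KO library 1 was within the WT values for MT-ND2 and above them for MT-ND5. The log2 differences were -0.40 ± 0.32 SE for each (limma adjusted p = 0.480 and 0.476).

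MT-ND1, the membrane subunit next to the quinone-binding site, had 4906, 3432 and 2402 FPKM in DCRT-KO, against 3668, 3596 and 4622 FPKM in WT. The highest and the lowest library were both DCRT-KO, and the log2 difference of -0.20 ± 0.32 SE did not pass (limma adjusted p = 0.743). Its sign turned with quantile normalization (0.068), which sets values by rank within a library, and without DCRT-KO library 3 (0.060).

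MT-ND3, a small subunit at the junction of both arms, had 722, 333 and 435 FPKM in DCRT-KO, against 731, 594 and 867 FPKM in WT. It rests on 132, 43 and 208 fragments in DCRT-KO and 655, 370 and 619 in WT. Libraries 2 and 3 of DCRT-KO were below every WT library, and library 1 was between WT libraries a and b. The log2 difference was -0.62 ± 0.29 SE (limma adjusted p = 0.235; 0.0386 with quantile normalization).

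MT-ND6, the membrane subunit of the minus strand, had 775, 418 and 428 FPKM in DCRT-KO, against 683, 876 and 949 FPKM in WT. Fragments numbered 215, 82 and 310 in DCRT-KO and 928, 827 and 1028 in WT. DCRT-KO library 1 exceeded WT library a, while libraries 2 and 3 lay below all WT libraries. MT-ND6 had the most negative log2 difference of the 7, -0.68 ± 0.27 SE, which did not pass with limma on FPKM (adjusted p = 0.171) but passed with voom on whole fragments (-0.69, adjusted p = 0.0319) and with quantile normalization (-1.19, adjusted p = 0.0288). Over all 14 alternatives its adjusted p ran from 0.0288 to 0.391. The strand setting of the authors' counting is not given, so fragments of MT-ND6 and of RNA from the opposite strand cannot be told apart with certainty.

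MT-ND4L, a small membrane subunit, was the exception in direction. It had 2026, 1226 and 1127 FPKM in DCRT-KO, against 1027, 1308 and 1616 FPKM in WT, from 318, 136 and 462 fragments in DCRT-KO and 790, 699 and 990 in WT. The groups overlapped throughout, and the log2 difference was 0.12 ± 0.29 SE (limma adjusted p = 0.823). Its sign turned without DCRT-KO library 1 (-0.14) and without WT library a (-0.045).

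**Figure D1:**
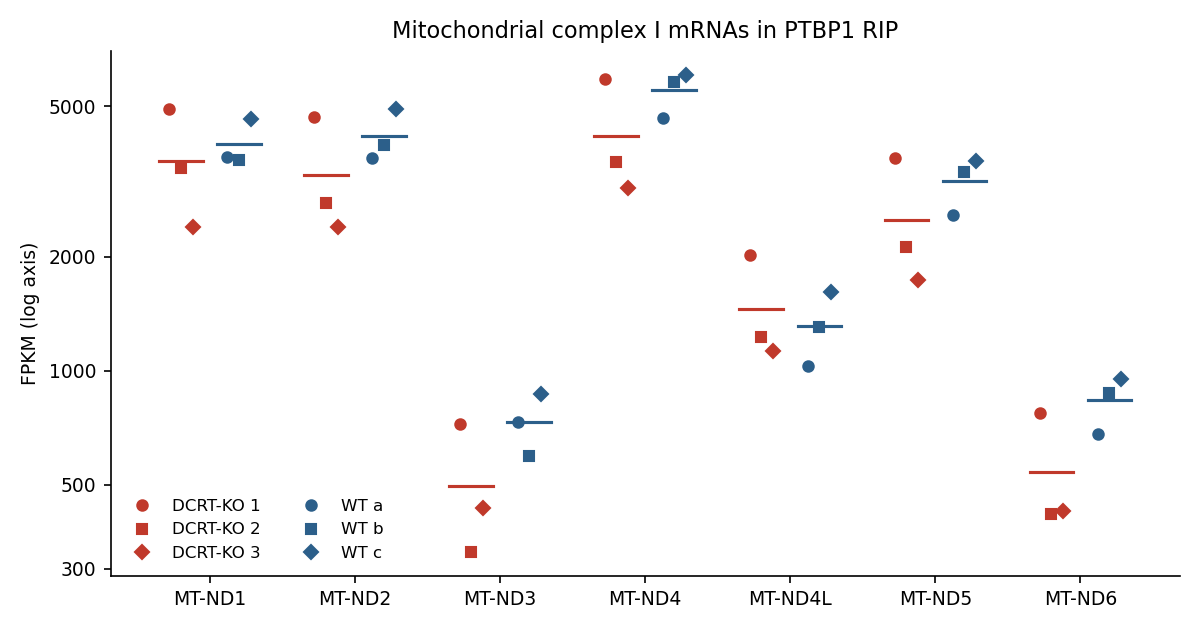
FPKM (log axis) of the 7 complex I mRNAs, 1 point per library, with DCRT-KO in red left of WT in blue and a line at each group mean (n = 3 each). DCRT-KO library 1 lies within or above the WT values in every gene, and DCRT-KO libraries 2 and 3 lie below all WT libraries in 6 of the 7, all but MT-ND4L.

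None of the 7 passed the limma test on FPKM at an adjusted p of 0.05, where 3.55% of the 11445 tested genes were called, 2.35% of the tested genes as higher in DCRT-KO and 1.20% as lower. These are 269 higher and 137 lower genes, a split that moved to 281 and 278 with quantile normalization and to 70 and 64 without the variance trend. MT-ND6 had an unadjusted limma p under 0.05, the only 1 of 7, against 23.6% of all tested genes. With voom, 5 of 7 had an unadjusted p under 0.05, against 24.0% of all tested genes. After adjustment 1, MT-ND6, passed with voom, where 3.40% of all tested genes were called lower. With quantile normalization MT-ND3 and MT-ND6 passed, against 2.43% of all tested genes called lower. That method gives each gene the mean value of its rank, so these passes rest on ranks among genes. With it MT-ND1 and MT-ND2 stood at 0.068 and -0.068, each ± 0.073 SE, against 0.32 SE on FPKM. The median log2 difference of the 7 was -0.40, against -0.04 over all tested genes, with 6 of 7 lower. In none of the 7 did the 2 groups separate, whereas 30.3% of all tested genes had no overlap between groups, 15.5% with DCRT-KO above WT and 14.8% with DCRT-KO below WT. Without DCRT-KO library 1 the log2 differences ran from -0.97 for MT-ND6 to -0.14 for MT-ND4L. There 5 of 7 had an unadjusted limma p under 0.05, against 23.6% of all tested genes. None passed after adjustment (smallest limma adjusted p 0.0581, for MT-ND6). With another library left out, fewer of the 7 had an unadjusted limma p under 0.05. The number was 0 without DCRT-KO library 2 or 3, 1 without WT library a, and 0 without WT library b or c. Of the 11445 tested genes, 1261 higher and 1103 lower were under it without DCRT-KO library 2, and 1643 and 2054 without library 3. Without WT library a, b and c these numbers were 1042 and 735, 1034 and 718, and 1031 and 960. GENCODE 29 lists 215 nuclear pseudogenes of these genes and the deposited table lists none. How the authors' counting treated fragments that match both is not given in the sources used here.

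**Figure D2:**
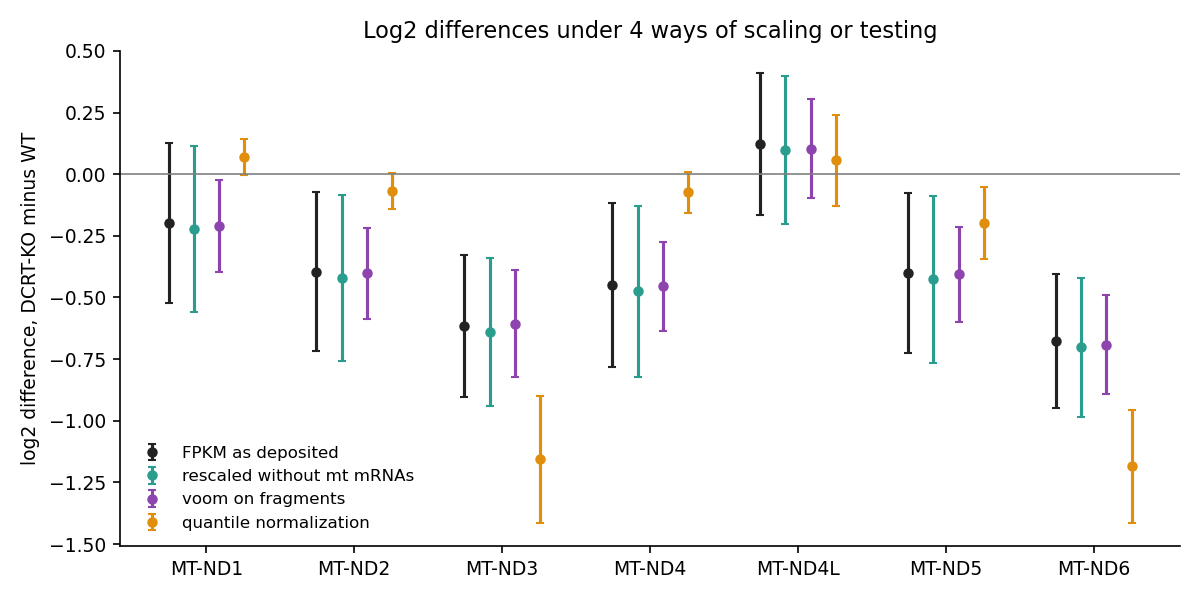
Log2 difference, DCRT-KO minus WT, with its SE for each complex I mRNA in 4 fits: FPKM as deposited, FPKM rescaled to the library total without the 13 mitochondrial mRNAs, voom on whole fragments, and quantile normalization. MT-ND3 and MT-ND6 stand at -1.16 and -1.19 with quantile normalization, which sets values by rank, against -0.62 and -0.68 with FPKM as deposited.

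Among themselves the 7 mRNAs kept nearly 1 order of levels, read from FPKM, which is per length. MT-ND4 averaged 4843 FPKM over the 6 libraries, MT-ND1 3771, MT-ND2 3730, MT-ND5 2838, MT-ND4L 1389, MT-ND6 688 and MT-ND3 614. MT-ND4L and MT-ND4 lie on 1 mRNA and yet differ here, so this is an order of FPKM and not of mRNA molecules. MT-ND4 exceeded MT-ND1 in 6 of 6 libraries (log2 ratio 0.35 ± 0.21 SD), MT-ND2 exceeded MT-ND5 in 6 of 6 (0.40 ± 0.10) and MT-ND5 exceeded MT-ND4L in 6 of 6 (1.02 ± 0.30). MT-ND1 and MT-ND2 did not differ beyond their spread (0.03 ± 0.15, MT-ND1 higher in 4 of 6), nor did MT-ND6 and MT-ND3 (0.17 ± 0.24, MT-ND6 higher in 4 of 6). The step between MT-ND4L and MT-ND6 ranged from 0.58 to 1.55 on the log2 scale and was present in 6 of 6 libraries.

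Together the 7 mRNAs held 8.36%, 5.37% and 4.77% of summed FPKM in DCRT-KO libraries 1, 2 and 3, against 6.88%, 8.0% and 8.58% for WT a, b and c. DCRT-KO library 1 was within the WT range and libraries 2 and 3 were below it. The means were 6.17% ± 1.93 in DCRT-KO and 7.82% ± 0.868 in WT (SD, n = 3 each; exact two-sided permutation p = 0.3, 0.4 after adjustment over 12 shares; the smallest p that 3 against 3 libraries allow is 0.1). In counted fragments, which are not scaled to length, the same mRNAs held 2.56%, 1.56% and 1.28% in DCRT-KO and 1.93%, 2.27% and 2.57% in WT (exact two-sided permutation p = 0.3). All 13 mitochondrial mRNAs followed the same order, with 34.2%, 23.9% and 22.05% of summed FPKM in DCRT-KO and 29.9%, 31.6% and 36.6% in WT. DCRT-KO libraries 1, 2 and 3 had 528371, 373354 and 1380722 fragments, all fewer than any WT library, and the part of depth in these shares was not tested.

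**Figure D3:**
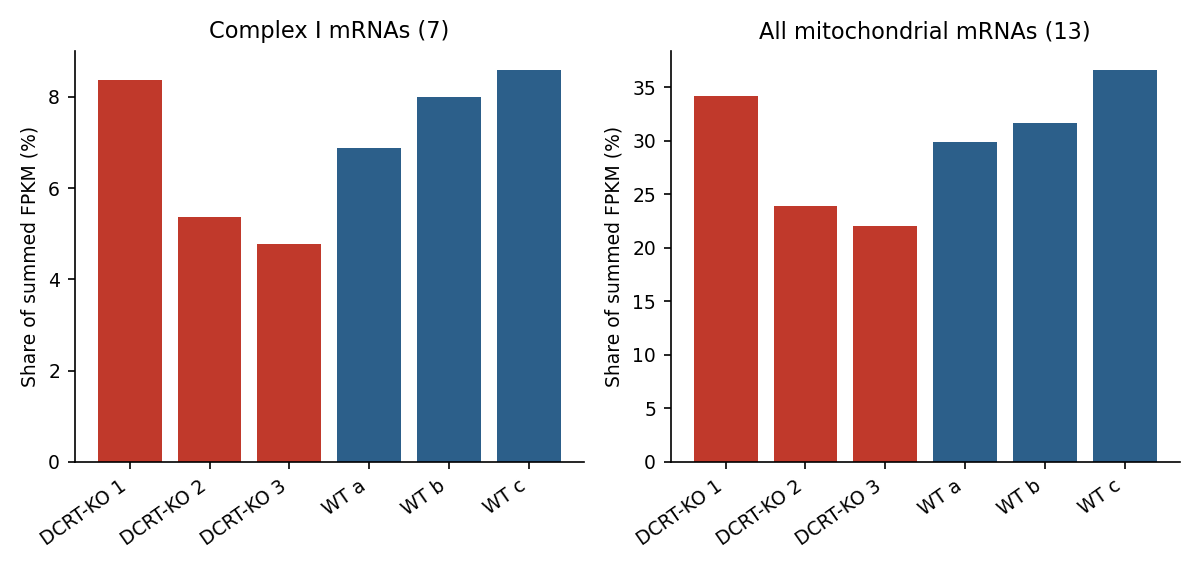
Share of each library's summed FPKM held by the 7 complex I mRNAs (left) and by all 13 mitochondrial mRNAs (right), 1 bar per library, DCRT-KO in red and WT in blue. In both panels DCRT-KO library 1 stands with the WT libraries and DCRT-KO libraries 2 and 3 stand below them.

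Within the mitochondrial mRNAs the complex I share overlapped between groups. It was 24.5%, 22.5% and 21.6% of their summed FPKM in DCRT-KO and 23.0%, 25.3% and 23.5% in WT (exact two-sided permutation p = 0.4, adjusted p = 0.436), so no difference in DCRT-KO between complex I mRNAs and those of complexes III to V was detected with 3 libraries a group. The 6 mRNAs of complexes III to V likewise gave no call with limma or voom, with a median log2 difference of -0.13. An unadjusted p under 0.05 was found in 0 of 6 with limma and 2 of 6 with voom, against 23.6% and 24.0% of all tested genes. MT-CO1, the catalytic subunit of cytochrome c oxidase, had 34105, 23738 and 19074 FPKM in DCRT-KO, against 28856, 29692 and 34660 FPKM in WT (limma adjusted p = 0.723). MT-CO3, of the same complex, had 16599, 11783 and 12319 FPKM in DCRT-KO, against 15760, 14955 and 21210 FPKM in WT (limma adjusted p = 0.628).

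In the composition of the 7, the groups did not overlap for 3 mRNAs, a comparison that library totals cannot move. MT-ND4L made up 8.94%, 8.83% and 9.74% of the summed FPKM of the 7 in DCRT-KO libraries 1, 2 and 3, against 6.04%, 6.72% and 7.14% for WT a, b and c. Every DCRT-KO library was thus above every WT library, by a factor of 1.38 between means (9.17% ± 0.496 in DCRT-KO and 6.63% ± 0.555 in WT, SD, n = 3 each). MT-ND6 made up 3.42%, 3.01% and 3.70% in DCRT-KO, against 4.02%, 4.50% and 4.2% in WT, every DCRT-KO library being below every WT library. MT-ND4 made up 26.1%, 25.7% and 26.3% in DCRT-KO, against 27.4%, 29.8% and 26.8% in WT, a small gap that closed when MT-ND4L was left out or when shares of fragments were used. With MT-ND4L left out, MT-ND1 lay higher in DCRT-KO without overlap (24.6% in DCRT-KO and 21.6% in WT). MT-ND4L, MT-ND6 and MT-ND4 each had an exact two-sided permutation p of 0.1, the smallest the design allows, and an adjusted p of 0.4 over the 12 shares, so none passed. Of all tested genes divided by the same sum, 19.7% had no overlap, 17.8% with DCRT-KO above and 1.97% with DCRT-KO below WT. Of the 7, 1 lay above and 2 below. These are unlike measures, because the shares of the 7 have a fixed sum and cannot all move in 1 direction. Other genes, in contrast, carry the changes of that sum between libraries, so no enrichment can be read from these numbers.

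**Figure D4:**
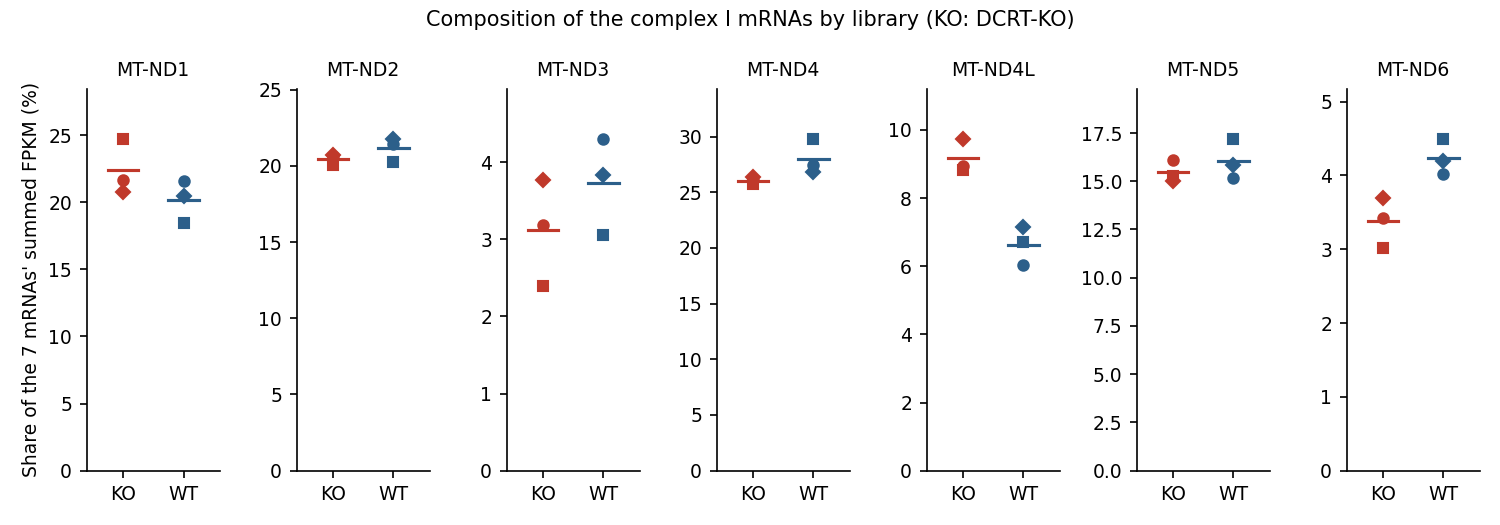
Share of the summed FPKM of the 7 complex I mRNAs held by each of them, 1 panel per mRNA with its own axis from 0, 1 point per library (marker shapes tell libraries of a group apart), DCRT-KO in red left of WT in blue and a line at each mean. The points of the groups separate for MT-ND4L (DCRT-KO above WT) and for MT-ND4 and MT-ND6 (DCRT-KO below WT), and overlap in the other 4 panels.

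For MT-ND4L, counting intervals separated the groups but for 1 pair of libraries. Its share of the fragments of the 7 mRNAs was 2.35% (95% exact binomial interval 2.10% to 2.62%), 2.33% (1.96% to 2.75%) and 2.61% (2.38% to 2.85%) in DCRT-KO libraries 1, 2 and 3. For WT a, WT b and WT c it was 1.58% (1.47% to 1.69%), 1.71% (1.59% to 1.84%) and 1.87% (1.76% to 1.99%). The lowest DCRT-KO interval, that of library 2, reached below the upper bound of WT library c, and the other DCRT-KO intervals lay above all WT intervals. For MT-ND6 no DCRT-KO interval was clear of the WT intervals. That of DCRT-KO library 3 (1.56% to 1.95%) overlapped those of all 3 WT libraries, and those of DCRT-KO libraries 1 (1.39% to 1.81%) and 2 (1.12% to 1.74%) reached that of WT library a (1.74% to 1.98%). Such intervals cover counting error only, since fragments without molecular identifiers are not independent molecules.

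Ratios between neighbours on the mitochondrial genome, chosen after the values were seen and so given without a test, show the same pattern. MT-ND4L had 0.343, 0.343 and 0.370 FPKM per FPKM of MT-ND4 in DCRT-KO, against 0.220, 0.225 and 0.267 in WT. These genes lie on 1 mRNA, and their ratio was 1.48 times higher in DCRT-KO. MT-ND6 had 0.212, 0.197 and 0.247 FPKM per FPKM of its neighbour MT-ND5 in DCRT-KO, against 0.265, 0.261 and 0.265 in WT. MT-ND4L also exceeded MT-ND3, a gene of similar length, by 2.81, 3.68 and 2.59 times in DCRT-KO and by 1.41, 2.20 and 1.86 times in WT. The 6 other mitochondrial mRNAs served as a denominator added after the data were seen. Relative to them, without overlap, MT-ND4L lay higher (2.71% in DCRT-KO and 2.09% in WT) and MT-ND6 lower (1.0% in DCRT-KO and 1.34% in WT). MT-ND4 overlapped. The member values and libraries are the same as before, so this is no separate support. The share of all tested genes without overlap was not computed for this denominator.

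MT-ND4L was set beside other short genes. MT-ND4L has 297 bases and a log2 difference of 0.12. Of the 26 tested genes of at most 400 bases, MT-ND4L and MT-ND3 included, 19 were higher in DCRT-KO, against 5400 of all 11445. Their median log2 difference was 0.95, against -0.04 over all tested genes. Limma called 7 of them higher and 1 lower, against 2.35% and 1.20% of all tested genes. Fragment totals were lower in DCRT-KO, so a fragment of a short gene gives more FPKM there than in WT. A short gene can therefore pass the filter of a mean of 1 FPKM through few fragments in DCRT-KO libraries alone. These numbers may thus be fixed in part by the filter, and no result about short genes can be read from them. MT-ND3, with 346 bases, had a lower share of the 7 in DCRT-KO (3.11% ± 0.686) than in WT (3.73% ± 0.631; SD, n = 3 each), with overlap. MT-ATP8, with 207 bases, had 3, 0 and 4 fragments in DCRT-KO and 1, 2 and 1 in WT. The part of length in the MT-ND4L result was not tested.

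The nuclear-made partners had a positive median log2 difference; whether it differs from that of the mitochondrial members was not tested. Of 7 nuclear-encoded core subunits of complex I, 6 were tested, and their median log2 difference was 0.73. With limma on FPKM 1 rose and none fell, against 2.35% and 1.20% of all tested genes. NDUFS8, an iron-sulfur subunit of the peripheral arm, had 19.7, 14.2 and 10.7 FPKM in DCRT-KO, against 6.49, 7.01 and 5.68 FPKM in WT (log2 difference 1.07 ± 0.24 SE, limma adjusted p = 0.0465), every DCRT-KO library being above every WT library. The call was lost in 9 of 14 alternatives, among them those without DCRT-KO library 1 or 2 or any WT library (limma adjusted p 0.0126 to 0.168 over all 14). The 7 mitochondrial mRNAs made up 99.5% ± 0.218 of the summed FPKM of all 14 core subunits in DCRT-KO and 99.7% ± 0.0842 in WT (SD, n = 3 each; exact two-sided permutation p = 0.3).

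Factors that make and maintain mitochondrial RNA gave no call with limma on FPKM. Of 5 transcription genes 2 had an unadjusted p under 0.05 with limma and 1 with voom, and the median log2 difference was 0.09. TFB2M, the transcription factor that opens mitochondrial promoters, had 13.8, 10.5 and 15.4 FPKM in DCRT-KO, against 13.2, 8.10 and 17.1 FPKM in WT. POLRMT, the mitochondrial RNA polymerase, had 12.7, 23.8 and 9.88 FPKM in DCRT-KO, against 8.63, 7.47 and 6.23 FPKM in WT, without overlap (log2 difference 0.88 ± 0.30 SE, limma adjusted p = 0.119). Of 19 genes of RNA processing and decay 18 were tested, and 4 had an unadjusted p under 0.05 with limma and 3 with voom. Among them 7 were higher and 11 lower, and the median was -0.06. For comparison with both lists, 23.6% of all tested genes had an unadjusted p under 0.05 with limma and 24.0% with voom.

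LRPPRC, which with SLIRP holds mitochondrial mRNAs stable, had 30.2, 28.3 and 26.5 FPKM in DCRT-KO, against 41.5, 41.1 and 43.8 FPKM in WT. Every DCRT-KO library was below every WT library, library 1 included, as in 14.8% of all tested genes. The log2 difference of -0.56 ± 0.15 SE missed the threshold (limma adjusted p = 0.0689), and with voom LRPPRC was the 1 gene of its list that passed. With voom 3.40% of all tested genes were called lower. Of the 18 tested genes of that list 4 had no overlap in either direction, LRPPRC included, against 30.3% of all tested genes. REXO2, also of that list, fell further (-1.66 ± 0.42 SE, limma adjusted p = 0.0596), from 3, 2 and 35 fragments in DCRT-KO. TBRG4, a member of the FASTK family of mitochondrial RNA-binding proteins, had 26.1, 36.9 and 36.4 FPKM in DCRT-KO, against 40.5, 33.5 and 29.2 FPKM in WT, with overlap (limma adjusted p = 0.886).

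The nuclear genes whose pattern over the 6 libraries lay nearest to that of the summed complex I mRNAs were PEAK1, HIP1, BCAR3, DOCK10 and HIVEP1. Likeness was the root mean square distance of centred log2(FPKM + 1) values over 6 libraries among 4245 genes averaging 10 FPKM or more. It was 0.13 to 0.14 for these 5, against a median of 0.50. BCAR3, for example, had 20.5, 11.6 and 11.1 FPKM in DCRT-KO, against 19.3, 18.4 and 20.04 FPKM in WT. DCRT-KO library 1 was above the WT values and libraries 2 and 3 below them, a pattern fixed by the choice of these genes. None of the 5 passed with limma.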

How the data were processed

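The authors deposited 1 table of FPKM with gene length and position for 20024 genes. Per the labels' protocols, libraries were strand-specific and paired-end, on an Illumina HiSeq, and the tools include cutadapt 1.2.1, per the submitters' processing notes; aligner, counter and build are not named in those sources. FPKM times the deposited gene length, an other unit in bases, was a whole multiple of 1 step per library in 100% of values (tolerance 1e-06), which gave fragments. Scaling to the fragment total means that more fragments of other genes lower these mRNAs.

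Column names tied each DCRT-KO column to a sample, and the WT columns, of which a number is repeated, to their group alone; 0 per-sample columns were left unused. Whether replicates are separate cultures is not stated, so p-values measure the spread between libraries, which may be technical. Replicates all differed by more than sampling noise (chi-square over its degrees of freedom, 3.10 to 6.42).

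The 11445 genes averaging 1 FPKM or more were tested, two-sided, on log2(FPKM + 1) by limma 3.58.1 (R 4.3.3) using a variance trend, with Benjamini-Hochberg adjustment over all of them and a threshold of 0.05. Each log2 difference is DCRT-KO less WT. Shares were compared by exact permutation (SciPy 1.17.1, Python 3.11.15), adjusted over 12. The test was tried on simulated data with the same spread between replicates in every gene. That trial therefore cannot show how the test performs on these libraries. Named were all 7 members; from each list of mitochondrial or complex I genes those past the threshold or else the 2 of highest mean; and the 5 genes of most like pattern. MT-ATP8 was named beside MT-ND4L for its length, REXO2 beside LRPPRC for its larger difference, and marker genes for their values, as seen. Members, lists and tests were chosen with earlier results of these data known. Alternatives were a pseudocount of 0.1, no filter (genes at 0 throughout still dropped) or a mean of 5 FPKM, median-of-ratios, quantile and mitochondria-free scaling, no variance trend, voom on fragments, and each library left out.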

Additional observations from a re-analysis of the deposited data

How the results depend on the processing

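Over 14 alternatives the log2 differences of MT-ND2, MT-ND3, MT-ND4, MT-ND5 and MT-ND6 kept their direction. MT-ND1 turned with quantile normalization (0.068), and left-out libraries gave -0.45 to 0.060 (without DCRT-KO library 3) for MT-ND1 and -0.14 to 0.28 for MT-ND4L, whose sign turned without DCRT-KO library 1 or WT library a (-0.045). The number of the 7 past the threshold, 0, became 2 with quantile normalization and 1 with voom. Every share kept its direction in the alternatives run for it.

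Counts over all genes, 269 higher and 137 lower, moved most. They were 189 and 90 with a pseudocount of 0.1, 72 and 50 without a filter, 281 and 278 with quantile normalization, 70 and 64 without the variance trend and 669 and 389 with voom. Left-out libraries gave 0 to 707 higher and 0 to 821 lower genes: 134 and 70 without DCRT-KO library 1, 42 and 23 without 2, 707 and 821 without 3, and 4 and 0, 8 and 0, and 0 and 0 without WT library a, b and c. With limma and WT library c left out, 1031 and 960 had an unadjusted p under 0.05; for the lower counts of 0 without a and b these numbers were 735 and 718. The cause was not tested.

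No paired analysis was possible because a number is repeated among the headers of the WT columns. Depth limits MT-ND3, MT-ND6 and MT-ND4L most, with 43, 82 and 136 fragments in DCRT-KO library 2.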
